A study of Mus musculus with 6 samples.

Results

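Bone morphogenetic protein (BMP) signalling and hedgehog signalling were followed through 10 genes of the 32285 measured in injured entheses of the mouse rotator cuff, where tendon attaches to bone. The genes were chosen by name and were found by symbol in the feature lists. They were Bmp1, Bmp2, Bmp4, the receptors Bmpr1a and Bmpr2, the antagonist Grem1, the target gene Id1, and the hedgehog genes Ihh, Ptch1 and Gli1. Single-cell RNA was measured at 7 days post injury (dpi), after rotator cuff tear and repair, in wild-type controls and Nlrp3-/- mice, with 3 libraries of each. The mice were adults, and the knockout is present in the whole body. The paper names the C57BL/6 strain for the wild-type mice and gives no strain for the Nlrp3-/- mice. Each genotype is described as n = 3 and the entheses as pooled, without saying whether a library holds 1 animal or several, so p-values measure the spread between libraries, which may be technical. Raw counts of unique molecular identifiers (UMIs) were summed per library and cell type and expressed as CPM, the count scaled to a fixed total for each sum.

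BMPs are secreted ligands that bind paired type I and type II receptors and act through SMAD proteins on target genes such as the Id genes, while antagonists such as gremlin 1 hold the ligands outside the cell. In the hedgehog pathway, a ligand such as Indian hedgehog, the product of Ihh, binds the receptor patched 1, and Ptch1 and Gli1 are themselves transcribed in cells that receive the signal. In growth cartilage Indian hedgehog comes from chondrocytes that are about to enlarge or have begun to, and it works in a loop with parathyroid hormone-related protein (PTHrP) and its receptor Pth1r. The mineralizing fibrocartilage of the growing enthesis also holds hedgehog-responsive cells. Bmp1 carries the name of the family but encodes a protease that trims procollagens.

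The libraries held 97042713 to 134901999 UMIs and 80351 cells in all. Nlrp3 had 7854, 16113 and 11191 UMIs in wild-type replicates 1, 2 and 3 and 0 in each Nlrp3-/- library. Xist, a transcript of female cells, had 2 to 12 UMIs in the wild-type libraries and 51967 to 86974 in the Nlrp3-/- libraries, and the Y-linked Ddx3y had 0 UMIs in the latter, so genotype and sex of the animals cannot be told apart in any comparison below. In Nlrp3-/- replicate 1, 9729 of 20507 cells lay in clusters made up mostly of that library and were set aside, most of them mesenchymal by their markers, so this library enters with a part of its mesenchymal cells. The analysis rested on 11003 mesenchymal cells, which express collagen genes and Pdgfra, in 12 clusters or groups of clusters. Of these, 6 could be named from fixed markers (tenocytes, matrix-building fibroblasts, synovial lining cells, inflammatory fibroblasts, dividing cells and chondrocytes), and each name means cells that resemble the type. The cluster called matrix-building fibroblasts had 7 of its 10 markers raised but none among its 10 leading genes, which include the contractile genes Acta2, Tagln and Cnn1. The other 6 are called by their leading genes. Because the types were made from the same cells, differences between types are described without a test, although the member genes were kept out of the clustering.

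The 10 genes lie at the following positions of build GRCm38: Bmp1 at chr14:70474558-70520234, Bmp2 at chr2:133552159-133562885, Bmp4 at chr14:46383520-46390669, Bmpr1a at chr14:34410734-34503341, Bmpr2 at chr1:59763400-59879014, Grem1 at chr2:113746164-113758646, Id1 at chr2:152736251-152737410, Gli1 at chr10:127329882-127341974, Ptch1 at chr13:63508328-63573598 and Ihh at chr1:74945315-74951672.

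The promoters of the ligand gene Ihh and its receptor gene Ptch1 are shown because this ligand and receptor pair carries the hedgehog levels described after them. Each stretch holds the 250 bases before the RefSeq start on build GRCm38.p6 and is read on the minus strand, Ihh at chr1:74951673-74951922 and Ptch1 at chr13:63565736-63565985. The Ptch1 start used by RefSeq lies inside the span of the gene given above. Capitals mark GGCGCC, a GC-rich word bound by SMAD proteins and identical on both strands.
Ihh: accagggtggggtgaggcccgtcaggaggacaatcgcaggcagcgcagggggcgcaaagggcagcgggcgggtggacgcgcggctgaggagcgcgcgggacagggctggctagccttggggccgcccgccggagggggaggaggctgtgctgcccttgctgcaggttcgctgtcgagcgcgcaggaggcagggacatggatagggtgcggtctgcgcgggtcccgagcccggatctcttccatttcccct
Ptch1: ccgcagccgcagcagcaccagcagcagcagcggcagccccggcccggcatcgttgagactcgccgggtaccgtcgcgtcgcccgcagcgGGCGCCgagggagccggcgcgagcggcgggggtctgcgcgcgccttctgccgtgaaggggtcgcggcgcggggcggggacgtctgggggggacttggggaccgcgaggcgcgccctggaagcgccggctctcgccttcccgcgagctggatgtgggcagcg
The word stood 161 bases before the start of Ptch1 and was not found in the Ihh stretch. It occurred in 4 of the 6 member promoters in the reference table (Bmpr1a, Bmpr2, Grem1 and Ptch1), and in 9.586% of all 32851 promoters. The word is made of G and C alone, and the 6 stretches were 63.2% to 78.8% G and C. Its share among promoters of such make-up was not computed, so these shares are not compared. The GLI word GACCACCCA, searched on both strands, occurred in 0 of the 6 and in 0.2253% of all promoters. Bmp1, Bmp2, Id1 and Gli1 were not matched in the table. A match in a window of this length is a description and not a binding site.

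Ihh was measured almost only in chondrocytes, which held 7137 of its 7196 mesenchymal UMIs (99.2%, and 98.0% without Nlrp3-/- replicate 2, the library with most chondrocytes). In the 4 libraries with at least 20 chondrocytes the level of Ihh in these cells was 491 CPM in wild-type replicate 1, 308 CPM in wild-type replicate 3, 350 CPM in Nlrp3-/- replicate 1 and 393 CPM in Nlrp3-/- replicate 2, a mean of 386 ± 78.4 CPM (SD, n = 4). The next type, the Acta2 C1qtnf3 cells, had 0.904 CPM, and the remaining types lay lower, with no order among them beyond their spread. Wild-type replicate 2 and Nlrp3-/- replicate 3 held only 9 and 6 chondrocytes, with Ihh at 13.9 CPM and at 0 UMIs. For Ihh, 0 of 81254 UMIs allows a level of up to 36.9 CPM by counting error.

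Ihh was detected in 22.7% to 48.1% of chondrocytes in the 4 libraries, against 0.0760% to 1.49% of macrophages, which should lack it. The chondrocytes were deeper, with a median of 7262 to 25645 UMIs per cell in those libraries against 3879 to 6006 in macrophages of all 6. RNA in empty droplets had 0.909 to 82.3 CPM of Ihh, so the low values outside chondrocytes lie at or below this background. The chondrocyte identity of these cells rested on Col2a1 at 21417 CPM, Acan at 3976 CPM and Sox9 at 738 CPM as means over 6 libraries.

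Ptch1, the hedgehog receptor gene that the pathway itself induces, had 71.9% of its mesenchymal UMIs in chondrocytes, and 39.5% without Nlrp3-/- replicate 2. By library this share ran from 1.83% in wild-type replicate 2 to 91.8% in Nlrp3-/- replicate 2. In chondrocytes it stood at 170 CPM in wild-type replicate 1, 295 CPM in wild-type replicate 3, 146 CPM in Nlrp3-/- replicate 1 and 231 CPM in Nlrp3-/- replicate 2. The mean was 210 ± 66.7 CPM (SD, n = 4), and chondrocytes were the highest type in each of the 4 libraries. Dividing cells came next at 21.4 ± 17.1 CPM (n = 6), and the Dlk1 Abca8a cells followed at 16.9 ± 14.3 CPM (n = 4). From there down to the Sfrp1 C3 cells at 4.95 CPM the types could not be ordered beyond their spread, and these means lie within the 4.17 to 33.9 CPM of empty droplets.

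Gli1, the transcription factor gene used as a readout of hedgehog signalling, was low everywhere, with 430 UMIs in all mesenchymal cells. The Dlk1 Abca8a cells had 11.3 ± 12.1 CPM (n = 4), chondrocytes 10.8 ± 2.36 CPM (n = 4) and the Tnxb Clec3b cells 6.42 ± 4.97 CPM (n = 6), and these types overlapped. Empty droplets had 0.483 to 2.16 CPM and macrophages 0 to 0.125 CPM of Gli1. The 8.02 to 13.8 CPM of the 4 chondrocyte sums lay above both ranges, whereas the 0.701 CPM of matrix-building fibroblasts did not.

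Id1, an inhibitor of helix-loop-helix transcription factors and a direct BMP target, was also highest in chondrocytes. Chondrocytes held 66.2% of its mesenchymal UMIs, or 35.4% without Nlrp3-/- replicate 2. It stood there at 347, 163, 214 and 239 CPM in wild-type replicates 1 and 3 and Nlrp3-/- replicates 1 and 2, a mean of 241 ± 77.3 CPM (n = 4). Dividing cells had 27.7 ± 17.3 CPM and synovial lining cells 23.6 ± 10.2 CPM (n = 6 each). Empty droplets held 74.2 to 135 CPM of Id1, more than any mesenchymal type other than chondrocytes. Outside the mesenchyme, endothelial cells had 287 to 610 CPM and neutrophils 162 to 297 CPM.

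Bmp2, a ligand that drives cartilage and bone formation, had a pair of high types among the mesenchymal cells. It stood at 107, 181, 78.7 and 24.1 CPM in the chondrocytes of wild-type replicates 1 and 3 and Nlrp3-/- replicates 1 and 2, with a mean of 97.7 ± 65.2 CPM (n = 4). Synovial lining cells followed at 35.6 ± 34.6 CPM (n = 6). Of the 4 libraries with at least 20 cells of both types, chondrocytes were above synovial lining cells in 3, and synovial lining cells were above in Nlrp3-/- replicate 2. Empty droplets had 5.68 to 11.7 CPM of Bmp2. Dividing cells had 10.7 ± 10.4 CPM, and each remaining mesenchymal type lay below 8 CPM. Bmp2 was not particular to the mesenchyme: endothelial cells had 39.0 to 104 CPM and pericytes and smooth muscle cells 23.1 to 83.3 CPM.

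**Figure D1:**
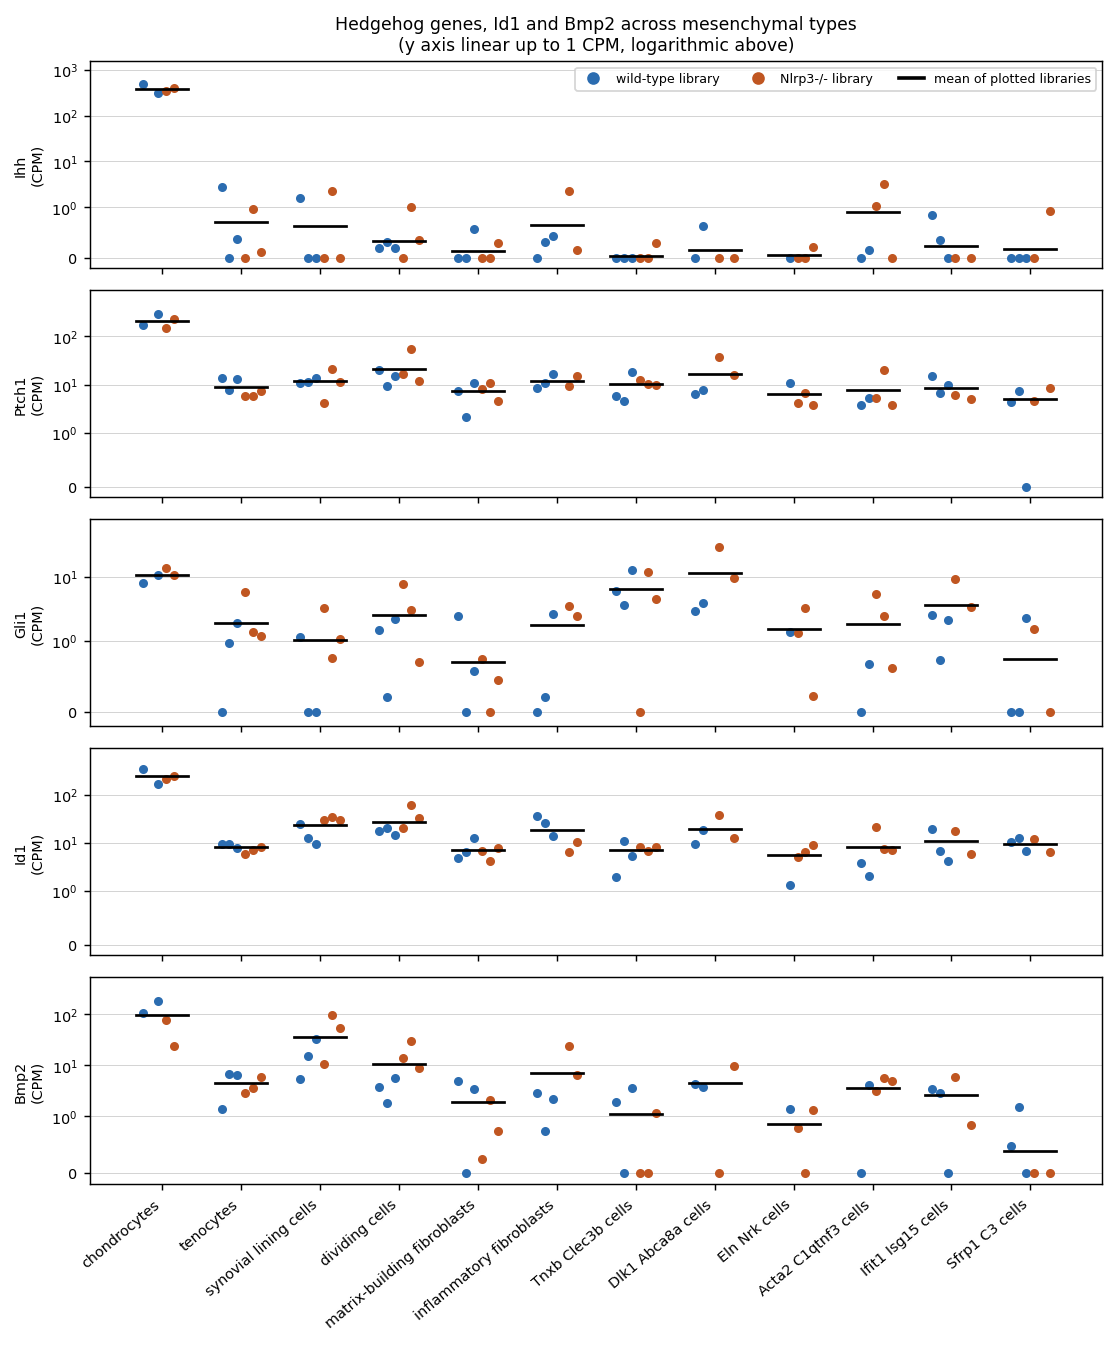
Level of Ihh, Ptch1, Gli1, Id1 and Bmp2 (CPM, y axis linear up to 1 and logarithmic above) in 12 mesenchymal types, with a point for each library that had at least 20 cells of the type (blue wild-type, orange Nlrp3-/-) and a line at their mean. Ihh lies at 308 to 491 CPM in chondrocytes and near 0 elsewhere, and Ptch1 and Id1 are also highest in chondrocytes in each of the 4 libraries, while Gli1 overlaps between chondrocytes and the Dlk1 Abca8a cells.

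When the mesenchymal cells were clustered more finely (resolution 2.0), 4 clusters were named chondrocytes. They were formed anew, so their cells are not exactly the 758 chondrocytes of resolution 1.0. Among these clusters Ihh was high where Gli1 and Hhip were low, while Ptch1 was measured beside Ihh as well. The clusters are called by leading genes: a Col10a1 cluster of 175 cells, a Col9a3 Ucma cluster of 309, a Col9a3 Cnmd cluster of 187 and a Chad Msmp cluster of 98. Col10a1 encodes the collagen of enlarged (hypertrophic) chondrocytes. Ihh, its receptor genes and the PTHrP genes were not used to form the clusters, and the 4 libraries below are those with at least 10 cells in both of the clusters compared.

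The Col10a1 cluster held 5275 UMIs of Ihh and the Col9a3 Cnmd cluster 12. Ihh stood at 968, 688, 1055 and 1184 CPM in the Col10a1 cluster of wild-type replicates 1 and 3 and Nlrp3-/- replicates 1 and 2, and at 19.6, 0, 0 and 3.07 CPM in the Col9a3 Cnmd cluster of the same libraries. Pth1r, the receptor of the PTHrP loop, went the same way at 1898 ± 466 against 395 ± 114 CPM (n = 4), and so did Bmp2 at 180 ± 125 against 13.1 ± 15.9 CPM (n = 4). Each of the 3 genes was higher in the Col10a1 cluster in 4 of 4 libraries.

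Gli1 showed the opposite placement. It had 8 UMIs in the Col10a1 cluster and 85 in the Col9a3 Cnmd cluster, at 2.68, 5.58, 0 and 0.887 CPM against 39.3, 26.3, 27.4 and 27.6 CPM in the same order of libraries, and the ranges did not overlap. Hhip, a decoy receptor that is induced by hedgehog signalling, had 0 UMIs in the Col10a1 cluster and 60 in the Col9a3 Cnmd cluster, where it stood at 30.8 ± 21.8 CPM. Ptch1 was measured in both, at 118 ± 63.5 CPM in the Col10a1 cluster and 287 ± 60.9 CPM in the Col9a3 Cnmd cluster, lower in the former in 4 of 4 libraries.

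The Col9a3 Ucma cluster lay between them for Ihh, with 285, 109 and 187 CPM in wild-type replicates 1 and 3 and Nlrp3-/- replicate 2, and for Gli1, with 4.53, 10.9 and 9.41 CPM. In the Chad Msmp cluster Ihh had 4 UMIs in all 98 cells, while Bmp2 was high again, at 403, 84.5, 82.6 and 75.8 CPM in wild-type replicates 1 and 3 and Nlrp3-/- replicates 1 and 2. The BMP receptors were lower in the Col10a1 cluster than in the Col9a3 Cnmd cluster in 4 of 4 libraries, with Bmpr1a at 30.8 ± 5.80 against 74.6 ± 31.0 CPM and Bmpr2 at 56.6 ± 13.2 against 91.4 ± 24.6 CPM. Grem1 had 2 UMIs in the former and 91 in the latter, where it stood at 0, 13.2, 18.3 and 37.3 CPM in wild-type replicates 1 and 3 and Nlrp3-/- replicates 1 and 2. Id1 was higher in the Col10a1 cluster in 3 of 4 libraries, at 265 ± 153 against 101 ± 70.1 CPM, which is within the spread. The Col9a3 Ucma cluster drew 261 of its 309 cells from Nlrp3-/- replicate 2.

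Within single chondrocytes, Gli1 was detected in 32 of 325 cells with an Ihh UMI (9.85%) and in 108 of 433 cells without one (24.9%). These 758 cells were pooled over libraries, 535 of them from Nlrp3-/- replicate 2, and the split was not made by library. The cells with Ihh were the deeper ones, at a median of 30006 against 17492 UMIs. Ptch1 was detected in 85.8% of the cells with Ihh and 76.9% of those without.

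**Figure D2:**
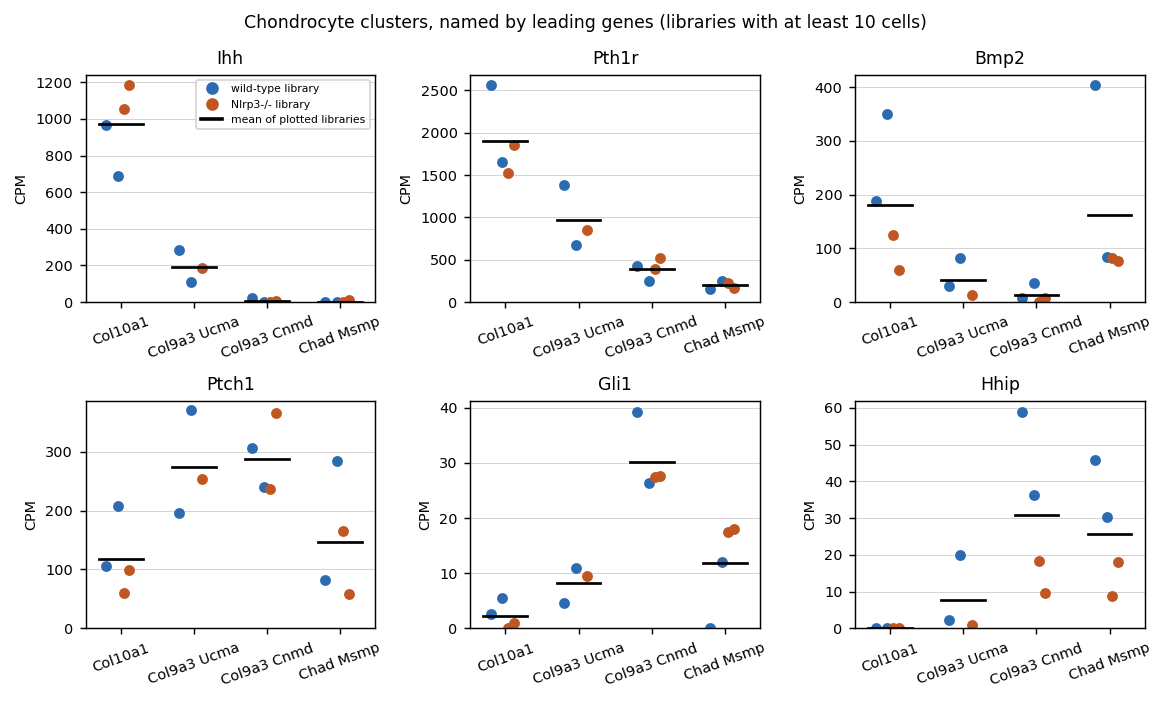
Level (CPM, linear axes from 0) of Ihh, Pth1r, Bmp2, Ptch1, Gli1 and Hhip in 4 chondrocyte clusters named by leading genes, with a point for each library that had at least 10 cells of the cluster (blue wild-type, orange Nlrp3-/-) and a line at their mean. Ihh is at 688 to 1184 CPM in the Col10a1 cluster, where Hhip has 0 UMIs and Gli1 is at 0 to 5.58 CPM, and Gli1 is at 26.3 to 39.3 CPM in the Col9a3 Cnmd cluster.

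Of the remaining BMP members, Bmp1, Bmpr1a, Bmpr2 and Grem1 were highest in types other than chondrocytes. Bmp1, the procollagen protease, was highest in the Tnxb Clec3b cells at 470 ± 35.4 CPM (n = 6), followed without separation by inflammatory fibroblasts at 453 ± 54.0 CPM (n = 5) and matrix-building fibroblasts at 449 ± 45.3 CPM (n = 6). The order ran down to dividing cells at 309 ± 31.8 CPM (n = 6). Chondrocytes were the lowest type at 84.2 to 110 CPM, below dividing cells in 4 of 4 libraries and below the 112 to 201 CPM of empty droplets.

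Bmpr1a, a type I receptor, ran from 86.2 ± 13.7 CPM in the Eln Nrk cells (n = 4) to 51.5 ± 17.9 CPM in chondrocytes (n = 4), with overlap between neighbours all along the order. Bmpr2, the type II receptor, was highest in inflammatory fibroblasts at 175 ± 30.1 CPM (n = 5), which led in 4 libraries, and next highest in the Sfrp1 C3 cells at 152 ± 19.6 CPM (n = 5). Chondrocytes were again lowest at 70.6 ± 16.4 CPM, below tenocytes (98.1 ± 23.8 CPM, n = 6) in 4 of 4 libraries. Endothelial cells had 117 to 286 CPM of Bmpr2.

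Grem1, the secreted antagonist, varied more between libraries than between types. In inflammatory fibroblasts it stood at 14.3, 10.1 and 80.1 CPM in wild-type replicates 1 to 3 and at 26.04 and 6.22 CPM in Nlrp3-/- replicates 2 and 3. The Sfrp1 C3 cells (28.8 ± 45.1 CPM, n = 5) and the Eln Nrk cells (27.1 ± 15.5 CPM, n = 4) were as high, and the Tnxb Clec3b cells were lowest at 2.71 ± 4.26 CPM (n = 6). Bmp4 had 174 UMIs in all mesenchymal cells, at most 2.75 ± 1.49 CPM in a type (chondrocytes, n = 4), which lies within the 0.971 to 3.82 CPM of empty droplets. Endothelial cells had 19.84 to 25.995 CPM of this ligand gene.

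**Figure D3:**
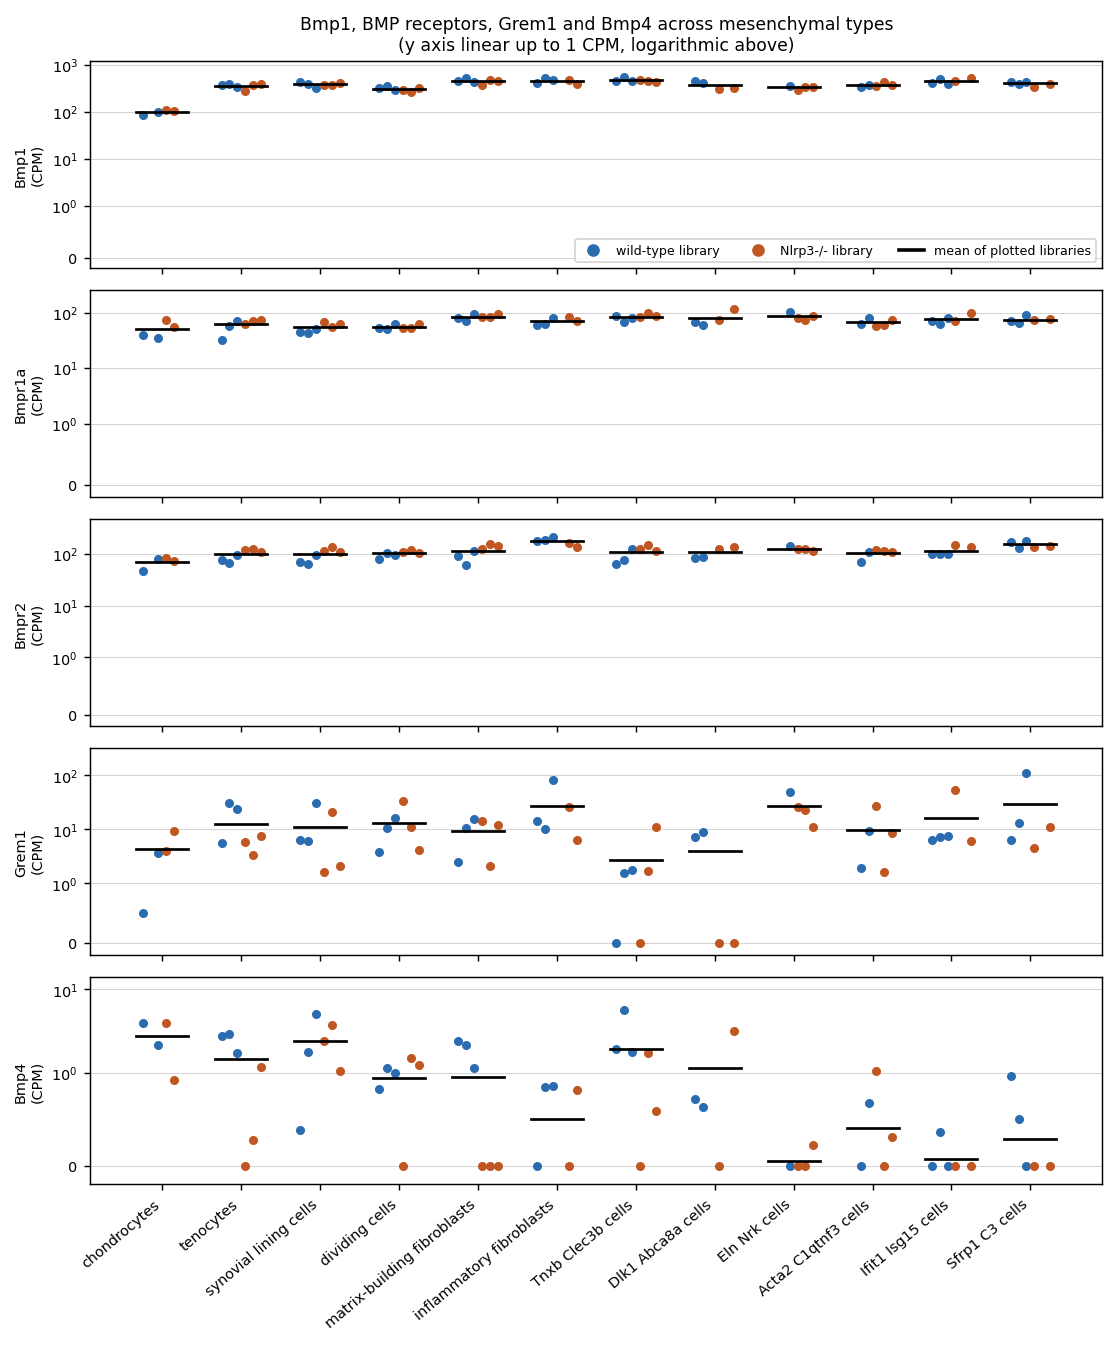
Level of Bmp1, Bmpr1a, Bmpr2, Grem1 and Bmp4 (CPM, y axis linear up to 1 and logarithmic above) in 12 mesenchymal types, with a point for each library that had at least 20 cells of the type (blue wild-type, orange Nlrp3-/-) and a line at their mean. Bmp1 is lowest in chondrocytes, at 84.2 to 110 CPM, while Grem1 ranges from 6.22 to 80.1 CPM among libraries within inflammatory fibroblasts.

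Across the 62 sums of a type in a library with at least 20 cells, the genes whose profiles were most like those of the members were named by Pearson's r on log2(CPM + 1), among 8022 genes. The sums of 1 library share its depth and free RNA, and genes of a rare type share its cells, so r is a description. Ihh ran with Panx3, Col10a1 and Snorc (r = 0.93 each), all genes of cartilage. Ptch1 ran with Ihh (r = 0.81), Atp1b3 (0.80) and Wif1 (0.79), and Id1 with Ywhaq (0.82), Ppa1 (0.79) and Cox4i2 (0.79). Bmp2 ran with Cspg4 (0.82), Mpp6 (0.80) and Myo5a (0.79), and Bmp1 with Nnmt (0.93), Fstl1 (0.92) and Aoc3 (0.91). Bmpr2 ran with Susd6 (0.82) and Tnks (0.79), and Bmpr1a with Dact1 (0.76), Ppp1r12a (0.75) and Ssbp2 (0.74). The closest genes of the lower members were weaker: Nrep (0.67), Col15a1 (0.66) and Sdcbp (0.62) for Gli1, S1pr1 (0.58), Plekhg4 (0.55) and Pgm2 (0.53) for Grem1, and Slc48a1 (0.58), Pcsk6 (0.57) and Mustn1 (0.56) for Bmp4.

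Lists of 90 genes of both pathways, members included, gave the surroundings of the members. Of 70 list genes with at least 5 CPM in their highest mesenchymal type, 24 (34.3%) were highest in chondrocytes and 15 (21.4%) in the Dlk1 Abca8a cells, against 16.4% and 14.5% of all 11612 genes at that level. Both types are means over 4 libraries. Pth1r stood at 1080 CPM in chondrocytes, while Pthlh, the gene of its ligand PTHrP, was highest in synovial lining cells at 36.4 CPM. The hedgehog co-receptor genes Gas1 and Cdon were highest in the Eln Nrk cells, at 571 and 101 CPM, and Gli3 in the Sfrp1 C3 cells at 44.0 CPM. Scube2, whose product helps to release hedgehog ligands, was highest in the Eln Nrk cells at 45.7 CPM, and Sufu, an inhibitor of the GLI factors, in inflammatory fibroblasts at 17.3 CPM. Elsewhere in the list of hedgehog ligands and release, Scube1, Scube3 and Disp1 were highest in chondrocytes at 78.2, 18.7 and 13.9 CPM. Hhat of that list was highest in the Dlk1 Abca8a cells at 23.4 CPM, and these genes were named after their values were seen. On the BMP side, Smad7, an inhibitor of the receptors, and the target Id2 were highest in chondrocytes at 106 and 216 CPM. Bmp5 and Id3 were highest in the Dlk1 Abca8a cells at 19.5 and 699 CPM, together with the antagonist gene Nbl1 at 637 CPM, while Smad4 led in the Eln Nrk cells at 79.5 CPM. Pcolce, which helps the Bmp1 protease, was highest in tenocytes at 1022 CPM, and Fstl1 in the Tnxb Clec3b cells at 3891 CPM.

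Between the genotypes, 0 of the 10 members passed the test in mesenchymal cells (edgeR quasi-likelihood test, adjusted over 14608 genes), where 0.11% of all genes did. At an unadjusted p under 0.05 there were also 0 members, against 12.3% of all genes. DESeq2 called 0 members, against 1.57% of all genes. Of the 16 genes called by edgeR, 4 lie on the Y chromosome and 3 on the X chromosome. The median log2 fold change of the members (Nlrp3-/- against wild-type) was 0.21, and that of all genes was 0.04.

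The share of chondrocytes differed widely between libraries. They made up 7.38%, 0.396% and 4.41% of the mesenchymal cells in wild-type replicates 1, 2 and 3, and 4.44%, 30.7% and 0.200% in Nlrp3-/- replicates 1, 2 and 3. These shares depend on the cells set aside: a further cluster of 273 cells with chondrocyte markers, 97.8% of them from Nlrp3-/- replicate 1 and shallow, is not in them, while the largest chondrocyte cluster, 78.5% from Nlrp3-/- replicate 2, was kept because its cells were deeper than that library's median. Ihh in all mesenchymal cells stood at 53.2, 0.246 and 16.3 CPM in the wild-type libraries and 11.47, 174 and 0.206 CPM in the Nlrp3-/- libraries, and the groups overlapped. Its log2 fold change was 1.42 (SE 1.99, adjusted p = 0.74), and -2.17 without Nlrp3-/- replicate 2.

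Ptch1 stood at 29.5, 8.95 and 26.4 CPM against 12.4, 111 and 9.11 CPM, a log2 fold change of 1.02 (SE 0.99, adjusted p = 0.63). Id1 stood at 52.8, 17.8 and 16.5 CPM against 19.6, 117 and 13.7 CPM, a log2 fold change of 0.77 (SE 0.89, adjusted p = 0.68). Nlrp3-/- replicate 2 was the highest library for both genes. Without it the log2 fold changes were -1.09 and -0.88. With the chondrocytes left out of all libraries, the ratio of the highest to the lowest library fell from 12.4 to 2.07 for Ptch1 and from 8.52 to 2.30 for Id1, less so for Gli1 (from 10.6 to 6.67), and it rose for Bmp2 (from 7.76 to 8.79) and Bmp4 (from 3.70 to 5.22). For Ptch1 and Id1 the log2 fold changes were then -0.09 and 0.01.

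Gli1 stood at 2.21, 0.546 and 2.25 CPM in wild-type replicates 1, 2 and 3 and at 3.97, 5.79 and 1.42 CPM in the Nlrp3-/- libraries, where replicate 3 lay among the wild-type values. Its log2 fold change was 1.13 (SE 0.68, adjusted p = 0.47), and 0.80 without chondrocytes. Bmp2 stood at 14.5, 3.46 and 16.1 CPM against 6.35, 26.9 and 8.50 CPM, with a log2 fold change of 0.27 (SE 0.72, adjusted p = 0.87), and 1.52 (adjusted p = 0.29) once chondrocytes were left out. It was -0.67 without Nlrp3-/- replicate 2 and -0.16 without wild-type replicate 2.

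For both receptors the groups overlapped in the sum of all mesenchymal cells, which does not show the values within types given below. Bmpr2 ran from 94.7 to 119 CPM in the wild-type and from 105 to 122 CPM in the Nlrp3-/- libraries (log2 fold change 0.03, SE 0.14, adjusted p = 0.94), and Bmpr1a from 56.7 to 71.7 and from 62.3 to 78.1 CPM (0.14, SE 0.14, adjusted p = 0.64). Bmp1 ran from 345 to 431 and from 257 to 390 CPM (-0.27, SE 0.18, adjusted p = 0.51). Grem1 stood at 5.65, 9.88 and 24.01 CPM against 21.3, 9.99 and 7.81 CPM (-0.10, SE 0.58, adjusted p = 0.94). Bmp4 stood at 1.08, 1.25 and 1.42 CPM against 0.385, 1.06 and 0.687 CPM (-0.82, SE 0.41, adjusted p = 0.43, and 0.22 with the set-aside clusters included), each level within the range of empty droplets or below it.

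**Figure D4:**
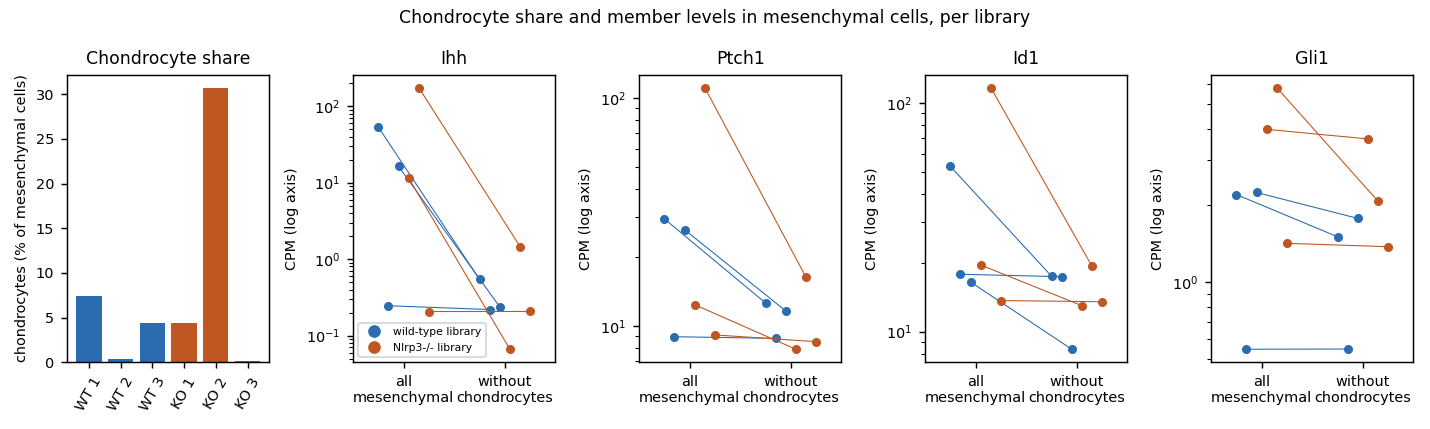
Left, chondrocytes as a percentage of mesenchymal cells in each library (bars; WT wild-type, KO Nlrp3-/-), and right, level of Ihh, Ptch1, Id1 and Gli1 (CPM, log axes) in all mesenchymal cells and after chondrocytes were left out, with a line for each library. Nlrp3-/- replicate 2, with 30.7% chondrocytes, is the highest library for all 4 genes in all mesenchymal cells, though not for Gli1 once chondrocytes are left out, and the spread of Ptch1 narrows from 12.4 to 2.07 times between the highest and the lowest library.

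Within chondrocytes the genotypes could be compared in only 2 libraries each, in a fit added after the cell counts were known, and 0 members passed the test, where 0.0431% of all genes did. Ihh had a log2 fold change of -0.20 (SE 0.37), Ptch1 of -0.34 (SE 0.37), Id1 of -0.27 (SE 0.42) and Gli1 of 0.22 (SE 0.45), each with an adjusted p of 1.00 from edgeR. Bmp2 was lower in both Nlrp3-/- libraries (78.7 and 24.1 CPM) than in both wild-type libraries (107 and 181 CPM). Its log2 fold change was -1.73 (SE 0.54), with an unadjusted p of 0.0119 and an adjusted p of 1.00 from edgeR. The make-up of the chondrocytes differed between these libraries: Nlrp3-/- replicate 2 had 261 cells in the Col9a3 Ucma cluster, and Nlrp3-/- replicate 1 had 0 cells in that cluster and 38 in the Chad Msmp cluster. Within the Col10a1 cluster Bmp2 stood at 189 and 350 CPM in wild-type replicates 1 and 3 and at 124 and 58.8 CPM in Nlrp3-/- replicates 1 and 2. In the same order of libraries it stood at 403 and 84.5 against 82.6 and 75.8 CPM in the Chad Msmp cluster and at 7.86 and 36.2 against 0 and 8.33 CPM in the Col9a3 Cnmd cluster. In the Ucma cluster it stood at 30.6 and 81.8 CPM in the wild-type libraries and at 12.3 CPM in Nlrp3-/- replicate 2. The part of the make-up in the difference was not tested.

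Within the 5 types with at least 20 cells in every library, 0 members passed the test. The percentage of all genes called was 0.305% in synovial lining cells, 0.141% in dividing cells, 0.211% in tenocytes, 0.284% in matrix-building fibroblasts and 0.137% in the Tnxb Clec3b cells. DESeq2 also called 0 members in these types, where it called 1.96%, 0.791%, 1.14%, 0.284% and 0.351% of all genes in the same order. Not every member could be tested: 7 passed the filter on low counts in synovial lining cells and in tenocytes, 8 in dividing cells, 4 in matrix-building fibroblasts and 3 in the Tnxb Clec3b cells.

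In synovial lining cells 4 of the 7 members tested had an unadjusted p under 0.05, all higher in Nlrp3-/- mice, against 17.3% of all genes. Bmp2 stood at 5.44, 15.4 and 32.3 CPM in wild-type replicates 1, 2 and 3 and at 10.6, 96.6 and 53.3 CPM in the Nlrp3-/- libraries, and the groups overlapped (log2 fold change 1.63, SE 0.63, adjusted p = 0.24). Id1 stood at 24.9, 12.9 and 9.64 CPM against 29.3, 35.2 and 29.7 CPM, without overlap (0.91, SE 0.30, adjusted p = 0.19). In wild-type replicate 1 and no other library Bmp2 here lay below its own empty droplets. Bmpr2 stood at 71.1, 62.7 and 96.0 CPM against 115, 138 and 108 CPM, also without overlap (0.56, SE 0.18, adjusted p = 0.18), and Bmpr1a had a log2 fold change of 0.32 (SE 0.14, adjusted p = 0.27). Every Id1 value here lay below the level in empty droplets. The 10 chondrocyte markers summed to 98.99 to 342 CPM in the synovial lining cells of the wild-type and to 254 to 589 CPM in those of the Nlrp3-/- libraries, and their part in these differences was not tested.

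In dividing cells, Bmp2 stood at 3.74, 1.86 and 5.60 CPM in wild-type replicates 1, 2 and 3 and at 14.1, 29.98 and 8.88 CPM in the Nlrp3-/- libraries, without overlap, with a log2 fold change of 2.11 (SE 0.52, adjusted p = 0.31). Bmp2 in empty droplets of the same libraries was 10.1, 6.77 and 7.12 CPM in the wild-type and 5.68, 11.7 and 6.12 CPM in Nlrp3-/- mice, so each wild-type value lay below this background and each Nlrp3-/- value above it. Id1 was the only other member with an unadjusted p under 0.05 there (0.96, SE 0.34, adjusted p = 0.35), against 13.1% of all genes. The chondrocyte markers summed to 111 to 670 CPM in the dividing cells of the wild-type and 254 to 754 CPM in those of the Nlrp3-/- libraries. In the tests of a difference between types, the other mesenchymal cells include chondrocytes, which held 39.5% of the mesenchymal UMIs of Bmp2. The chondrocyte share differed between libraries, and its part in the values that follow was not tested. The difference of the Bmp2 effect between dividing cells and the other mesenchymal cells was 2.09 on the log2 scale (SE 0.40, adjusted p = 0.45). It was the smallest adjusted p among the members in the 5 such tests, which called 0 members by edgeR, with 0% of all genes called in 4 of the types and 0.00743% in the Tnxb Clec3b cells. At an unadjusted p under 0.05 these tests called 5.46% of all genes in dividing cells, 3.33% in the Tnxb Clec3b cells, 2.8% in matrix-building fibroblasts, 4.8% in synovial lining cells and 4.53% in tenocytes. The members among them were Bmp2 in dividing cells, Grem1 in the Tnxb Clec3b cells (a difference of 2.84), Bmpr2 (0.58), Bmp2 (-1.78) and Bmp4 (-6.56) in matrix-building fibroblasts, Bmpr2 in synovial lining cells (0.62), and Bmpr2 (0.53) and Grem1 (-1.60) in tenocytes. Apart from Bmp2 in dividing cells their adjusted p ran from 0.96 to 1.00. Bmp4 and Bmp2 in matrix-building fibroblasts had only 4 and 15 UMIs, and Grem1 in the Tnxb Clec3b cells had 43. None of these had passed the filter on low counts within the type itself, so their differences rest on few counts and are no support for an effect.

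In tenocytes, the tendon cells, Grem1 stood at 5.56, 31.1 and 23.3 CPM in wild-type replicates 1, 2 and 3 and at 5.80, 3.304 and 7.44 CPM in the Nlrp3-/- libraries. Wild-type replicate 1 lay among the Nlrp3-/- values, and the log2 fold change was -2.06 (SE 0.46, adjusted p = 0.13). Ptch1 stood at 13.9, 7.78 and 12.9 CPM against 5.80, 5.78 and 7.44 CPM, without overlap (-0.93, SE 0.31, adjusted p = 0.29). Ptch1 in empty droplets was 12.1, 4.17 and 12.1 CPM in the wild-type and 8.64, 33.9 and 5.96 CPM in the Nlrp3-/- libraries, above the tenocyte value in Nlrp3-/- replicates 1 and 2, and its part in this difference was not tested. Bmpr2 stood at 75.1, 65.2 and 96.7 CPM against 119, 124 and 109 CPM (0.45, SE 0.20, adjusted p = 0.39). These were the members with an unadjusted p under 0.05 in tenocytes, against 12.1% of all genes. In matrix-building fibroblasts it was Bmpr2 alone (0.52, SE 0.21, adjusted p = 0.46), against 9.05%, and in the Tnxb Clec3b cells there was none, against 10.1%. The chondrocyte markers summed to 329 to 1146 CPM in the tenocytes of the wild-type and 994 to 1443 CPM in those of the Nlrp3-/- libraries, and their part was not tested.

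**Figure D5:**
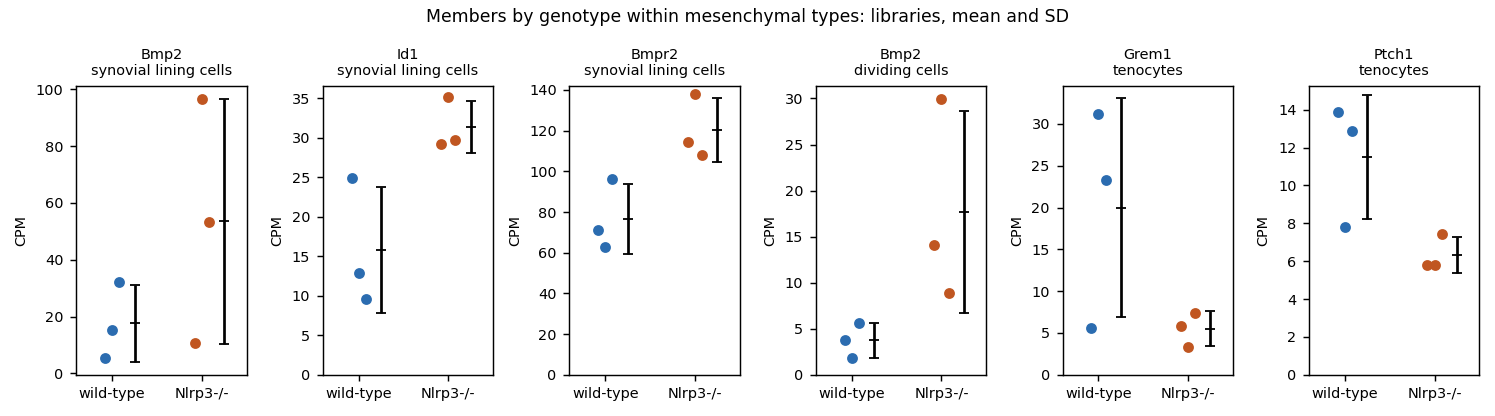
Level (CPM, linear axes from 0) by genotype of a selection of members in synovial lining cells, dividing cells or tenocytes. Each had an unadjusted p under 0.05 from edgeR between the genotypes. Bmpr1a in synovial lining cells, Id1 in dividing cells and Bmpr2 in tenocytes also had such a p and are not shown. A point stands for each of 3 libraries per genotype, with the mean and its SD beside them. The groups overlap for Bmp2 in synovial lining cells and for Grem1 in tenocytes, and no adjusted p passed 0.05 in any panel.

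The side of the threshold depended on single choices, and so did the number of genes called. Without wild-type replicate 3, Bmp2 in dividing cells (2.49, adjusted p = 0.0377), Bmpr2 in synovial lining cells (0.71, adjusted p = 0.0404) and Bmpr2 in tenocytes (0.64, adjusted p = 0.0323) passed the edgeR test, where 8.35%, 7% and 15.8% of all genes did. Without wild-type replicate 1, Grem1 in tenocytes passed (-2.33, adjusted p = 0.0227), where 0.197% of all genes did. With no filter on low counts, Bmp2 passed in dividing cells (adjusted p = 0.00529, 0.508% of all genes called), Bmp2 and Id1 in synovial lining cells (1.87e-05 and 0.00648, 3.42% called) and Grem1 in tenocytes (0.000106, 1.68% called). With finer clusters (resolution 2.0), Id1 passed in synovial lining cells (1.99, adjusted p = 0.0405), where 0.163% of all genes did. That name then covered 336 cells against 1016 at resolution 1.0, and in a separate Prg4 Cxcl3 cluster of 545 cells, where 0.219% of all genes were called, 0 members were. The difference of the Bmp2 effect between dividing and other mesenchymal cells passed with no filter (2.11, adjusted p = 0.00894, 0.083% called), and that of Ptch1 in tenocytes passed without Nlrp3-/- replicate 3 (-3.51, adjusted p = 0.03, 0.157% called). In both tests the other cells include chondrocytes, where Ptch1 stood at 210 CPM against 8.93 CPM in tenocytes. Chondrocytes made up 30.7% of the mesenchymal cells of Nlrp3-/- replicate 2 and 0.200% of those of Nlrp3-/- replicate 3. Their part in these differences was not tested.

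Inflammatory fibroblasts had under 20 cells in Nlrp3-/- replicate 1, which was left out of their fit. There Bmp2 stood at 2.86, 0.740 and 2.15 CPM in the wild-type libraries and at 23.7 and 6.54 CPM in Nlrp3-/- replicates 2 and 3. It passed the filter on low counts through these Nlrp3-/- libraries alone. Its log2 fold change of 3.19 (SE 0.73, adjusted p = 0.071 from edgeR, where 1.74% of all genes were called) is therefore a description and no support for a difference. The wild-type values lay below Bmp2 in their own empty droplets, and those of Nlrp3-/- replicates 2 and 3 lay above theirs, at 11.7 and 6.12 CPM. The type joins a Saa3 Cxcl5 cluster, 75.6% from wild-type replicate 2, and an Mmp3 Mmp13 cluster, 63.8% from Nlrp3-/- replicate 3, so most cells of this pair of libraries lie in different clusters. Id1 had a log2 fold change of -1.51 (SE 0.42, adjusted p = 0.12) and Bmpr2 of -0.47 (SE 0.20, adjusted p = 0.28), where both had positive values in synovial lining cells, and the difference between these types was not tested. In the Dlk1 Abca8a cells, with 2 libraries each and 2.94% of all genes called, Bmp1 had a log2 fold change of -0.58 (SE 0.18, adjusted p = 0.12) and Ptch1 of 1.64 (SE 0.53, adjusted p = 0.13). Ptch1 had 35 UMIs in these cells and passed the filter on low counts through the Nlrp3-/- libraries alone. Its value is therefore a description and no support for a difference. In the Acta2 C1qtnf3, Ifit1 Isg15 and Sfrp1 C3 cells, where 0.425%, 0.165% and 0.162% of all genes were called, 0 members passed the test.

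Of the 90 pathway genes 78 could be tested in mesenchymal cells, and 0 passed the edgeR test. At an unadjusted p under 0.05, 5 were higher and 3 lower in Nlrp3-/- mice, against 12.3% of all genes tested. The higher ones were the ligand genes Gdf5 (log2 fold change 2.58) and Bmp3 (1.70), Kif7 (1.01), which encodes a ciliary regulator of the GLI factors, Runx2 (0.75) and the inhibitor gene Smad6 (0.65). Gdf5 and Runx2 were highest in chondrocytes (14.1 and 116 CPM), Bmp3 in the Tnxb Clec3b cells, and Kif7 and Smad6 in the Eln Nrk cells. The part of the unlike chondrocyte shares of the libraries in these values was not tested. The lower ones included the antagonist gene Fst (-1.37) and Pcolce (-0.56). The adjusted p-values of the genes named ran from 0.36 to 0.40, and they were named after their values were seen. DESeq2 called 1 list gene and 1.57% of all genes.

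Outside the mesenchyme, 0 of the 7 members tested in endothelial cells passed the edgeR test, and 3 had an unadjusted p under 0.05, against 20.6% of all genes. Bmp2 stood at 64.9, 62.0 and 104 CPM in wild-type replicates 1, 2 and 3 and at 52.0, 39.4 and 39.0 CPM in the Nlrp3-/- libraries, without overlap, with a log2 fold change of -0.93 (SE 0.20, adjusted p = 0.090), where 0.366% of all genes were called. DESeq2 gave -0.95 with an adjusted p of 0.00273 and called 3.23% of all genes, edgeR with no filter gave -0.94 with 0.000187 and called 4.61%, and edgeR without wild-type replicate 3 gave -0.73 with 0.0172 and called 19.4%. Bmpr2 had a log2 fold change of 0.52 in these cells (SE 0.20, adjusted p = 0.20), and 0.70 (adjusted p = 0.0263) without that library, and Bmpr1a of 1.12 (SE 0.48, adjusted p = 0.22) at 0.614 to 4.50 CPM, below the 12.1 to 27.4 CPM of empty droplets. Bmp4 and Id1 had -0.10 (SE 0.17) and -0.41 (SE 0.21). In pericytes and smooth muscle cells 0 of the 6 members tested passed, where 0.142% of all genes did (DESeq2 0 members and 1.1% of all genes), and 0 had an unadjusted p under 0.05, against 13.5% of all genes. In macrophages 0 of the 6 members tested passed the edgeR test, where 0.48% of all genes did, and 1 had an unadjusted p under 0.05, against 19.8%. This was Bmpr1a, which had a log2 fold change of 1.74 (SE 0.30, adjusted p = 0.061), with an adjusted p of 0.00109 from DESeq2 (4.74% of all genes called), 0.00659 with no filter (1.88%) and 0.0159 without wild-type replicate 3 (20.1%), but its level of 0.542 to 3.42 CPM also lay below that of empty droplets. Bmpr2 passed in macrophages without wild-type replicate 3 (0.44, adjusted p = 0.0152), at 25.1 to 44.0 CPM over the libraries against 27.7 to 51.7 CPM in empty droplets.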

How the data were processed

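Single-cell RNA-seq libraries were made with 10x Chromium 3′ chemistry from injured entheses at 7 dpi. For each library the authors deposited raw UMI counts per gene and barcode, not normalized and before cell calling. Per the submitters' processing notes, Cell Ranger 2.1.1 and build mm10 were used, while the file headers name another Cell Ranger version. UMIs count molecules at the 3′ end, so levels are not compared between genes. Intervals and the limit of 3 counts for a count of 0 cover counting error only.

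Barcodes with at least 500 UMIs, 200 genes and at most 10% mitochondrial UMIs that differed from the ambient profile (barcodes with at most 100 UMIs, false discovery rate 0.01) were kept, and doublets were removed by Scrublet score at 0.008 per 1000 cells. Pairs of libraries shared 27 to 92 cell barcodes. Cells were clustered with scanpy 1.11.5 (2000 variable genes without members, pathway genes, Nlrp3 and sex-linked genes; 30 components; Leiden resolution 1.0, leidenalg 0.10.2) and named from fixed markers. A further 787 mesenchymal cells in clusters with markers of other types were left out. Clusters were set aside where 1 library gave more than 75% of the cells and those cells were shallower than that library's median.

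UMIs were summed per library and type, scaled to CPM, and tested with the edgeR 4.0.16 quasi-likelihood test (R 4.3.3; TMM, filterByExpr, Benjamini-Hochberg over all genes, threshold 0.05), which gives the p-values in the text. The 10 members were named whatever their result, with up to 2 genes per pathway list by level, any list gene past the threshold and the 3 most similar genes per member, of which some results are not reported here. The members and lists were chosen with earlier results of these data known. Alternatives were RLE factors, DESeq2 1.42.0, no filter, a replicate block, each library left out, at least 1000 UMIs, at most 5% mitochondrial UMIs, set-aside clusters included and resolution 2.0, and, chosen after seeing the data, chondrocytes left out and types tested in libraries with at least 20 cells. The fit was tested on simulated data. The titles gave genotype and replicate; the genotype field of Nlrp3-/- replicates 2 and 3 names other Nlrp genes, but no Nlrp3 UMI was found in them. Positions come from GENCODE vM21 and promoters from RefSeq.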

Additional observations from a re-analysis of the deposited data

How the results depend on the processing

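Under the alternatives, 0 of 139 log2 fold changes of members in mesenchymal cells passed the threshold, 123 kept their sign and 16 changed it. With the replicate number as a block the values were -1.78 for Ihh, 0.024 for Grem1 and -0.11 for Ptch1, and 0 genes were called in mesenchymal cells. Libraries of the same number deviated apart (r = -0.15, -0.54 and -0.19), which gave no sign of pairing by number. These values carry the unlike cell make-up of the libraries, so they cannot decide whether libraries of the same number were handled together. With set-aside clusters included, which was not run by type, the values were -0.0191 for Bmpr2, 0.0827 for Grem1 and 0.22 for Bmp4, and with chondrocytes left out -0.0876 for Ptch1. DESeq2 called 229 genes (1.57% of all) and 1 pathway gene in mesenchymal cells. It gave 2 calls of members in the other types, where it called 3.23% of all genes in endothelial cells and 4.74% in macrophages. With no filter on low counts there were 4 calls of members by mesenchymal type (Bmp2 in 2 types). All genes were then called at 0.508% in dividing cells, 3.42% in synovial lining cells and 1.68% in tenocytes. There were 2 calls of members in the other types, where 4.61% of all genes were called in endothelial cells and 1.88% in macrophages. The tests of a difference between types gave 1 (Bmp2 in dividing cells, adjusted p = 0.00894), where 0.083% of all genes were called. At resolution 2.0, 1 member was called by type (Id1 in synovial lining cells, 1.99, adjusted p = 0.0405), where 0.163% of all genes were called. Leaving out each library in turn moved the log2 fold change from -0.0677 to 0.0943 for Bmpr2, -0.67 to 0.63 for Bmp2, -0.61 to 0.65 for Grem1, -2.17 to 2.90 for Ihh, -0.88 to 1.52 for Id1 and -1.09 to 1.51 for Ptch1, and the genes called from 4 to 588, the latter without wild-type replicate 3. It gave 0 to 1 pathway genes, 0 to 3 calls of members by mesenchymal type and 0 to 4 in the other types (Bmpr2 counted once per type). The most calls came without wild-type replicate 3, where 8.35%, 7% and 15.8% of all genes passed in dividing cells, synovial lining cells and tenocytes. In endothelial cells and macrophages 19.4% and 20.1% of all genes passed without that library. The tests of a difference between types gave 0 to 1 calls, where Ptch1 in tenocytes passed without Nlrp3-/- replicate 3 (-3.51, adjusted p = 0.03, 0.157% of all genes called). The other cells in those tests include chondrocytes, and their part was not tested. Of 80 levels of members in their highest type 68 stayed in the same type and within the spread between libraries and 12 did not, and among these another type led for Bmp4, Bmpr1a, Bmpr2, Grem1 and Gli1.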
